A study of Brassica juncea with 2 samples.

Results

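Glucosinolates are the sulfur-rich thioglucosides of mustards and their relatives, and they are built from amino acids such as methionine and tryptophan. Intact tissue keeps them apart from myrosinase, the enzyme that removes their glucose when cells are broken. The unstable product then turns into an isothiocyanate, which gives mustard its heat, or into a nitrile where a specifier protein is present. The unigenes (assembled, non-redundant transcripts) of this pathway were taken from the annotation of the deposited table wherever it contained the words glucosinolate, myrosinase, thioglucoside, methylthioalkylmalate, isopropylmalate, nitrile specifier, epithiospecifier, nitrilase or sulfotransferase. HOL1 (Bju_CS52_NR_17493), which the study's own annotation ties to a thiol methyltransferase and which has no description in the deposited table, was added by name. This gave 56 of 47513 unigenes, of which 53 belong to the rapa series, with a B. rapa match, and 3 to the non-rapa series. Unigenes are written here without the shared prefix Bju_CS52_, and unigenes of one annotation are called copies.

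The SS library came from seedlings of Brassica juncea var. CS52, a salinity-tolerant Indian mustard, that were kept for 24 h in 200 mM salt. The CTRL library came from seedlings of the same variety that stayed in water. Both were wild type seedlings of 2 weeks from a hydroponic culture, and each library pooled about 10 of them. There is 1 library per condition, so none of the differences below has a replicate check, no test across samples was possible and no p-value is given. A single pool per condition also means that salt cannot be told apart from any other difference between the 2 pools.

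Levels are RPKM, the number of reads scaled to a unigene's own length in kilobases and to the high-quality reads of the library. Reads on unigenes came to 73982305 in SS (82.4% of its high-quality reads) and 77863614 in CTRL (82.1%). Differences are log2(RPKM + 0.1) in SS minus the same in CTRL, over unigenes that reached 1 RPKM in one library or both. A difference of at least 2-fold is named as such, and ratios carry no pseudocount. The 95% intervals, exact Poisson for levels and exact Clopper-Pearson for ratios, cover counting error only and treat PCR duplicates as separate molecules. The labels give the tissue only as seedlings. The 44 unigenes annotated to photosystems and light harvesting summed to 43886 RPKM in SS and 46110 RPKM in CTRL, with a median log2 difference of -0.02, and 2 of them were at least 2-fold lower in SS. The 11 unigenes annotated to root hairs or the root cap summed to 102 RPKM in SS and 109 RPKM in CTRL, and none of the 10 that passed the minimum differed by 2-fold. In such bulk RNA, fewer cells of a type and less RNA per cell cannot be told apart.

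Most of these unigenes differed by less than 2-fold between the libraries, and nearly all that passed 2-fold were lower in SS. Of the 56 unigenes, 55 passed the minimum, and 7 of these were at least 2-fold lower in SS, which is 12.7%, where 4.21% of the 43250 unigenes tested in the whole table were lower by as much. Only 1 was at least 2-fold higher, which is 1.82%, where 1.91% of all unigenes were. In either direction 14.5% of the pathway unigenes passed 2-fold, against 6.12% of all. The 7 lower unigenes were 3 copies of nitrile specifier protein 1, the single nitrile specifier protein 5, 1 copy of myrosinase-binding protein 2, 1 copy of desulfoglucosinolate sulfotransferase 18 and HOL1. HOL1 entered by name, and the study had already reported its HOL1 homolog as more than 2-fold lower under salt in these libraries. Its call is therefore no new finding. Without HOL1, 6 of 54 were lower, which is 11.1%.

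The median log2 difference of the 55 was 0.10, with 30 above 0 and 25 below (32 and 23 with median-of-ratios size factors, or with a running median over neighbouring unigenes removed as a trend), where the median of all unigenes was -0.06. The counting interval of the ratio lay above 1 for 24 of the 56 and below 1 for 21, and it included 1 for 11. These intervals were not counted over all unigenes, so no share stands beside them. At high read counts they leave out 1 for small differences, as for nitrilase 2 with a ratio of 1.03. They also do not cover the choice of scaling, as size factors moved the median of all unigenes from -0.06 to 0.00153. For 21 of the 56 the 2 levels lay within 1.2-fold of each other. Next to the 2-fold limit, HOL1 lay just inside with -1.11, while the nearest on the other side were a copy of sulfotransferase 18 with -0.79 and a copy of myrosinase with 0.74. For 6 of the 7 lower unigenes the whole counting interval of the ratio lay under 0.5.

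These are abundant transcripts. The median level of the 56 was 15.4 RPKM in SS and 19.3 RPKM in CTRL, where the median unigene of the table had 2.84 RPKM in SS and 3.04 RPKM in CTRL. Together they took 0.681% of the reads on unigenes in SS and 0.647% in CTRL. A group of 4 unigenes, namely nitrilase 2 R_24249, the myrosinase R_26650, the myrosinase-binding protein R_26697 and the nitrile specifier R_22225, held 74.2% of the pathway's reads in SS and 70.9% in CTRL. None of these 4 was among the unigenes past 2-fold. The plot of the 39 unigenes with at least 10 RPKM shows this spread of levels by role.

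**Figure D1:**
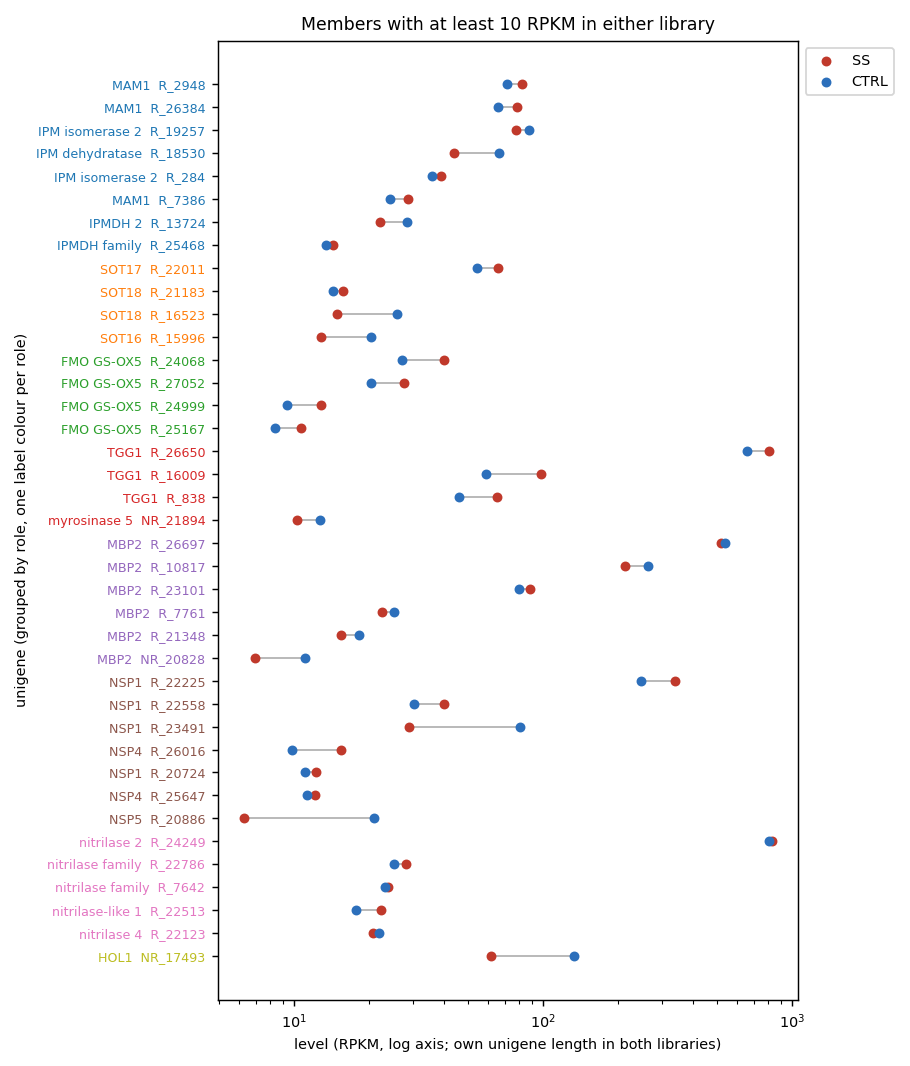
Level of each pathway unigene with at least 10 RPKM in either library (log axis), SS in red and CTRL in blue, grouped by role. Levels run up to 828 RPKM in SS and 804 RPKM in CTRL for nitrilase 2, and the longest lines join the points of NSP1 R_23491, NSP5 R_20886 and HOL1, all lower in SS.

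Side-chain elongation comes first in the synthesis of methionine-derived (aliphatic) glucosinolates. None of the 9 unigenes of this step passed 2-fold. Methylthioalkylmalate synthase 1 (MAM1), which condenses the methionine-derived oxo acid with acetyl-CoA, had 3 copies, all a little higher in SS. R_26384 had 78.7 RPKM in SS and 65.5 RPKM in CTRL, a ratio of 1.20 (1.17 to 1.23). R_2948 had 81.9 RPKM in SS and 71.5 RPKM in CTRL, and R_7386 had 28.6 RPKM in SS and 24.2 RPKM in CTRL. Summed over the copies MAM1 stood at 189 RPKM in SS against 161 RPKM in CTRL. The enzymes that follow MAM1, which in Arabidopsis serve leucine synthesis as well, lay on both sides. The aconitase/isopropylmalate dehydratase unigene R_18530 had 43.7 RPKM in SS and 66.5 RPKM in CTRL, with a ratio of 0.657 (0.631 to 0.683). Isopropylmalate dehydrogenase 2 R_13724 had 22.2 RPKM in SS and 28.3 RPKM in CTRL. The 2 copies of isopropylmalate isomerase 2 split, R_19257 with 78.0 RPKM in SS and 87.3 RPKM in CTRL, and R_284 with 38.9 RPKM in SS and 35.9 RPKM in CTRL. The isocitrate/isopropylmalate dehydrogenase family unigene R_25468 differed least among the named ones, with 14.3 RPKM in SS and 13.4 RPKM in CTRL, a ratio of 1.07 (1.01 to 1.14). Its family label names isocitrate dehydrogenases as well, so it does not show that R_25468 acts in this step.

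The last step of the core structure is the transfer of sulfate onto the desulfoglucosinolate. Its sulfotransferases did not move together. In Arabidopsis, SOT16 prefers substrates made from tryptophan and phenylalanine, whereas SOT17 and SOT18 prefer long-chain aliphatic ones. SOT16 R_15996 had 12.8 RPKM in SS and 20.4 RPKM in CTRL, a ratio of 0.629 (0.580 to 0.681). SOT17 R_22011, the most abundant of them, had 65.8 RPKM in SS and 54.3 RPKM in CTRL, a ratio of 1.21 (1.17 to 1.25). Both intervals leave out 1, on opposite sides.

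SOT18 had 4 copies with 2 different B. rapa matches. Of the pair that shares Bra027623, R_16523 had 14.9 RPKM in SS and 25.8 RPKM in CTRL. The other, R_10958, was past 2-fold with 1.21 RPKM in SS (64 reads) and 2.92 RPKM in CTRL (163 reads), a log2 difference of -1.20 and a ratio of 0.415 (0.306 to 0.557). With a pseudocount of 1 RPKM its difference was -0.83, short of 2-fold. Both copies of that match were thus lower in SS, the rarer one at few reads. Of the pair that shares Bra015936, R_21183 had 15.7 RPKM in SS and 14.3 RPKM in CTRL, while the shorter copy R_6331, under the limit for naming by level, had a log2 difference of -0.71.

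Flavin-monooxygenase GS-OX5, which oxidises the sulfur of finished methylthioalkyl side chains, was slightly higher in SS in 5 of its 6 copies. All 6 share 1 B. rapa match, Bra016787, and they summed to 97.4 RPKM in SS and 71.6 RPKM in CTRL, a ratio of 1.36. The most abundant copy, R_24068, had 39.8 RPKM in SS and 27.1 RPKM in CTRL, with a ratio of 1.47 (1.41 to 1.53). R_27052 had 27.7 RPKM in SS and 20.3 RPKM in CTRL. R_24999 had 12.8 RPKM in SS and 9.39 RPKM in CTRL, and R_25167 had 10.7 RPKM in SS and 8.35 RPKM in CTRL. The exception, R_24380, had a log2 difference of -0.10, and its interval included a ratio of 1. None of the copies reached 2-fold.

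Myrosinase itself was higher in SS in every copy of thioglucoside glucohydrolase 1 (TGG1), the classical above-ground enzyme of Arabidopsis, and none of the differences reached 2-fold. The main copy R_26650 had 808 RPKM in SS (804 to 812) and 659.9 RPKM in CTRL (656 to 664), a ratio of 1.22 (1.21 to 1.23). This placed it at rank 92 of 47505 unigenes in SS and at rank 106 of 47511 in CTRL. R_16009 differed most, with 98.2 RPKM in SS and 58.7 RPKM in CTRL, a ratio of 1.67 (1.61 to 1.73). R_838 had 65.5 RPKM in SS and 45.8 RPKM in CTRL, a ratio of 1.43 (1.33 to 1.54). The rarest copy, R_10187, had 59 reads in SS and 45 in CTRL, too few to separate the libraries by counting error (ratio interval 0.924 to 2.09). Each of the 4 has its own B. rapa match, and their sum was 973 RPKM in SS against 765 RPKM in CTRL. The annotated myrosinase 5, a root myrosinase in Arabidopsis, went the other way: NR_21894 had 10.2 RPKM in SS and 12.6 RPKM in CTRL, a ratio of 0.810 (0.763 to 0.860).

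Myrosinase-binding proteins are jacalin-like lectins that occur in complexes with myrosinase in Brassica seeds. The 9 unigenes, all annotated as myrosinase-binding protein 2 (MBP2), had 7 lower and 2 higher values in SS (6 and 3 with size factors or with the trend removed). Of all unigenes, 57.4% had lower values in SS. In either direction 2 of the 9 passed 2-fold, which is 22.2%, where 6.12% of all unigenes did. R_26697 had 519 RPKM in SS (516 to 523) and 535 RPKM in CTRL (531 to 538), a ratio of 0.971 (0.962 to 0.980). R_10817, with the same B. rapa match, had 212 RPKM in SS and 264 RPKM in CTRL, a ratio of 0.803 (0.783 to 0.823). R_23101 had 88.3 RPKM in SS and 79.6 RPKM in CTRL. Those 3 made up most of the family, whose sum was 876 RPKM in SS against 949 RPKM in CTRL.

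Among the less abundant copies of MBP2, R_7761 had 22.5 RPKM in SS and 25.3 RPKM in CTRL, and R_21348 had 15.4 RPKM in SS and 18.2 RPKM in CTRL. The non-rapa copy NR_20828 had 6.96 RPKM in SS and 11.1 RPKM in CTRL, a ratio of 0.628 (0.581 to 0.678). The family's members past 2-fold were both short and rare, and they lay on opposite sides. R_3054, of 353 bp, had 1.64 RPKM in SS (52 reads) and 6.93 RPKM in CTRL (232 reads), a log2 difference of -2.01 and a ratio of 0.237 (0.172 to 0.321). R_3948, of 371 bp, had 1.35 RPKM in SS (45 reads) and 0.569 RPKM in CTRL (20 reads), a log2 difference of 1.12 and a ratio of 2.38 (1.37 to 4.25). That interval reaches below 2, and with a pseudocount of 1 RPKM the log2 difference of this single higher unigene was 0.58.

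The specifier proteins held more unigenes past 2-fold than any other role. These kelch-domain proteins turn the unstable myrosinase product into nitriles in place of isothiocyanates. Of 9 unigenes, 4 were at least 2-fold lower in SS, which is 44.4% where 4.21% of all unigenes were, and 5 were higher by less than 2-fold. The abundant copy of nitrile specifier protein 1 (NSP1), R_22225, had 338 RPKM in SS (335 to 341) and 246 RPKM in CTRL (243 to 249), a ratio of 1.37 (1.35 to 1.39). The second most abundant in CTRL, R_23491, had 28.99 RPKM in SS (28.1 to 29.9) and 80.7 RPKM in CTRL (79.2 to 82.2), a log2 difference of -1.47 and a ratio of 0.359 (0.346 to 0.373). R_22558 had 39.9 RPKM in SS and 30.3 RPKM in CTRL. Thus, 3 copies with the same B. rapa match, Bra040923,, each at 28.99 RPKM or more in both libraries, lay on both sides of 1 by more than counting error.

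The same match holds a pair of rarer copies. R_20724 had 12.3 RPKM in SS and 11.0 RPKM in CTRL, whereas R_21327 had 1.15 RPKM in SS (128 reads) and 4.27 RPKM in CTRL (501 reads), a log2 difference of -1.80 and a ratio of 0.270 (0.220 to 0.328). The sixth copy of NSP1, R_7068, has another match (Bra021175) and had 1.26 RPKM in SS (51 reads) and 3.73 RPKM in CTRL (159 reads), a log2 difference of -1.49. Over all 6 copies NSP1 summed to 422 RPKM in SS and 376 RPKM in CTRL, a ratio of 1.12. That sum rests on R_22225, which made up 80.2% of it in SS and 65.4% in CTRL. In the study's own Arabidopsis annotation R_22225 is matched to the epithiospecifier protein, which favours epithionitriles, and not to NSP1. Without it the other 5 copies summed to 83.6 RPKM in SS and 129.97 RPKM in CTRL, a ratio of 0.643. Reads of near-identical copies may be divided between unigenes by the mapping, and how far this was so here was not tested.

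The other specifier proteins also split. Nitrile specifier protein 5 (NSP5), with the single unigene R_20886, had 6.30 RPKM in SS (5.84 to 6.79) and 20.9 RPKM in CTRL (20.1 to 21.8), a log2 difference of -1.71 and a ratio of 0.301 (0.276 to 0.328). Nitrile specifier protein 4 (NSP4) had 2 copies of 1 match, neither lower. R_26016 had 15.4 RPKM in SS and 9.78 RPKM in CTRL, a ratio of 1.57 (1.48 to 1.68), and R_25647 had 12.1 RPKM in SS and 11.3 RPKM in CTRL, a ratio of 1.07 (1.01 to 1.15).

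Nitrilases hydrolyse nitriles to acids, and in Arabidopsis some of them accept nitriles that come from glucosinolates. The search word found 7 unigenes, but 4 are annotated only to the nitrilase/cyanide hydratase family and 1 as nitrilase-like protein 1. Such annotations do not show that these act on nitriles. None of the 7 unigenes passed 2-fold, and their log2 differences ran from -0.08 to 0.33. Nitrilase 2 R_24249, which the study's Arabidopsis annotation names nitrilase 1, was the most abundant unigene of the whole pathway with 828 RPKM in SS (824 to 833) and 804 RPKM in CTRL (799 to 809). Its ratio was 1.03 (1.02 to 1.04), and it had rank 89 in SS and rank 83 in CTRL. Nitrilase 4 R_22123, which in Arabidopsis acts on β-cyanoalanine from cyanide detoxification, had 20.8 RPKM in SS and 21.9 RPKM in CTRL, and the interval of its ratio included 1. The largest difference among the 7 was that of nitrilase-like protein 1 R_22513, with 22.2 RPKM in SS and 17.6 RPKM in CTRL. The nitrilase family unigenes R_22786 and R_7642 lay closer, R_22786 with 28.2 RPKM in SS and 25.2 RPKM in CTRL, and R_7642 with 23.9 RPKM in SS and 23.2 RPKM in CTRL.

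HOL1, a methyltransferase that in Arabidopsis methylates thiocyanate, a breakdown product of indole glucosinolates, and halide ions, was the most abundant of the 56 among those past 2-fold. NR_17493 had 61.8 RPKM in SS (60.2 to 63.4) and 133 RPKM in CTRL (131 to 135), a log2 difference of -1.11 and a ratio of 0.464 (0.450 to 0.479). With the SS values as deposited, without a correction for length, HOL1 had -0.80 and NSP1 R_23491 had -0.71, both short of 2-fold. The only unigene whose deposited description names HOL1, R_8749, was looked up after these values were seen. It had 58.1 RPKM in SS and 106 RPKM in CTRL, a ratio of 0.546 (0.521 to 0.573), and so was lower in SS as well but short of 2-fold. The study's Arabidopsis annotation assigns R_8749 to the related HOL2.

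The 12 unigenes not described by level had 0.501 to 8.38 RPKM in SS and 0.852 to 8.56 RPKM in CTRL, with log2 differences from -0.71 to 0.43. They include benzoyloxyglucosinolate 1, a seed enzyme in Arabidopsis, and 3 unigenes of tyrosylprotein sulfotransferase, an enzyme that sulfates peptides and not glucosinolates and was caught by the search word. The tyrosylprotein sulfotransferase R_4224 is the 1 unigene of 56 that did not reach the minimum.

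**Figure D2:**
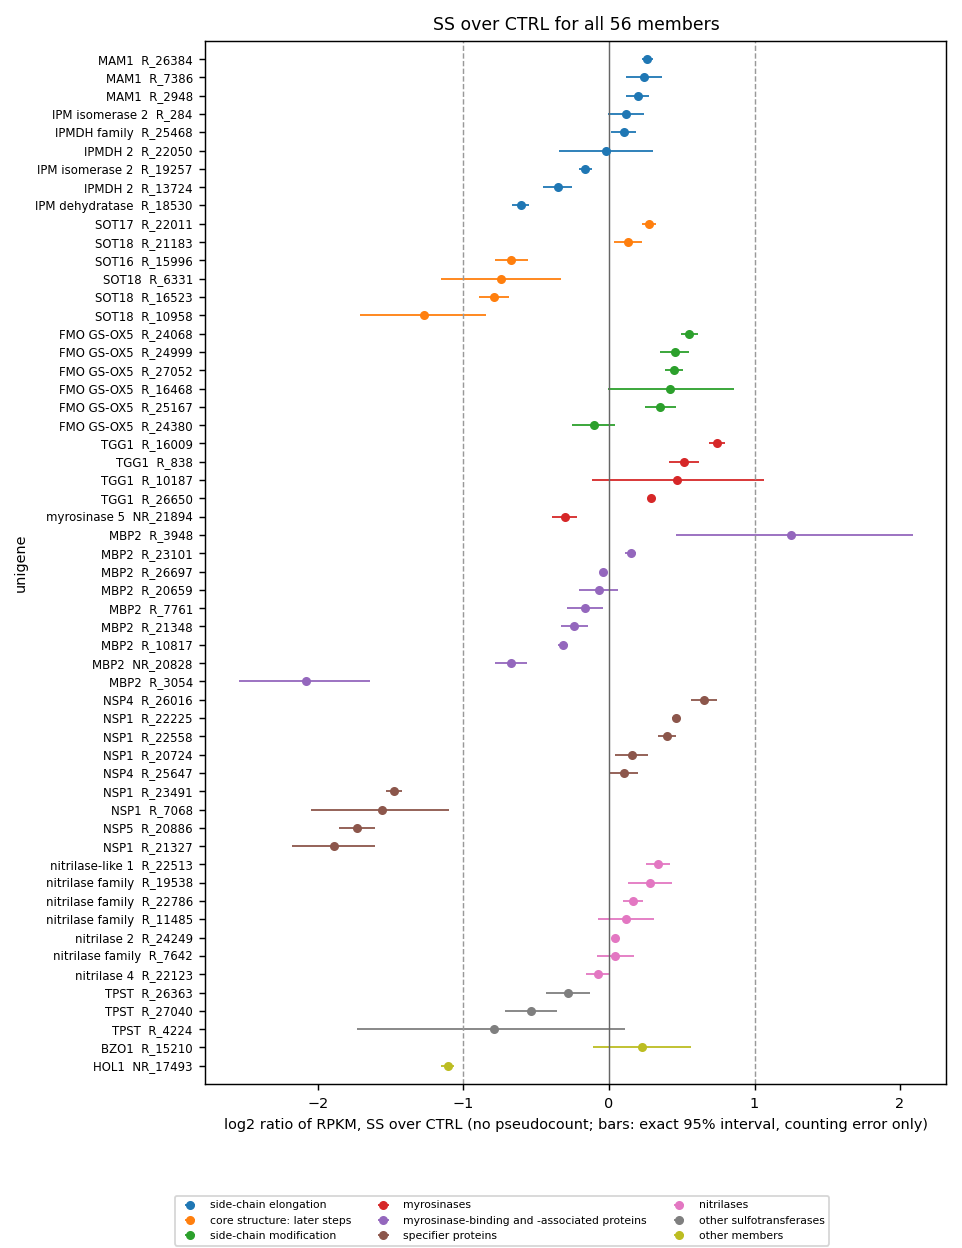
Log2 ratio of RPKM, SS over CTRL, for all 56 unigenes without a pseudocount, ordered within roles. Bars are exact 95% intervals for counting error, and dashed lines mark 2-fold. The 4 lower specifier proteins, MBP2 R_3054, SOT18 R_10958 and HOL1 lie left of the lower line, and MBP2 R_3948 lies right of the upper one with a bar that crosses it.

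There were 11 B. rapa matches with 2 or more of the pathway's unigenes, 30 unigenes in all. The range of log2 differences within a match had a median of 0.42. In 4 matches copies lay on both sides of 0, and in 2 the range exceeded 1 on the log2 scale. These were NSP1 with Bra040923, with a range of 2.26, and MBP2 with Bra018942, with a range of 1.94. At the other end, the nitrilase family copies of Bra008919 differed by 0.07. Ranges within matches were not worked out for the whole table, so whether copies of this pathway differ more than others was not tested. B. juncea carries an A genome shared with B. rapa and a B genome, so unigenes with 1 match can come from either. Which genome each came from was not analysed here. Some unigenes of 1 match differ much in length, as MBP2 R_10817 with 582 bp and R_26697 with 1858 bp. Whether such unigenes are parts of 1 transcript, which sums over copies would count more than once, was not tested.

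**Figure D3:**
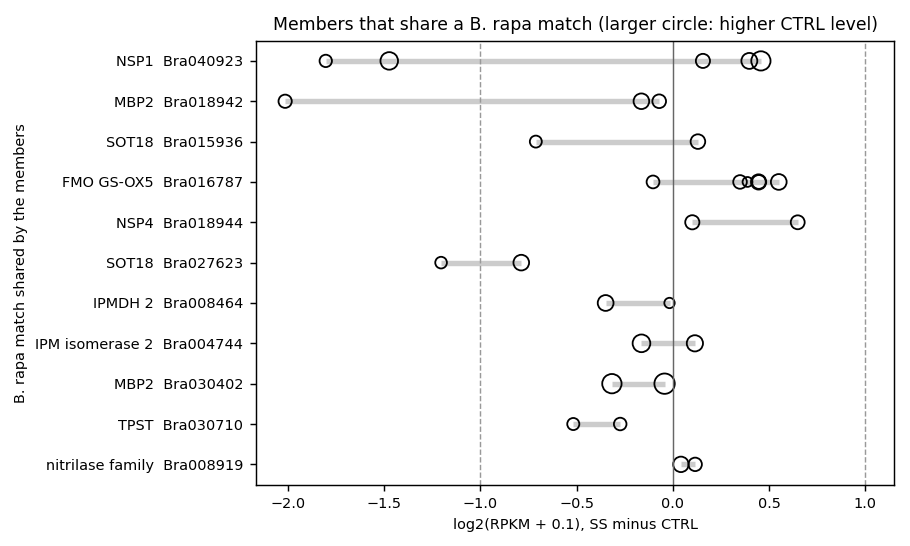
Difference of log2(RPKM + 0.1), SS minus CTRL, for unigenes that share a B. rapa match. Each circle is 1 unigene, larger for a higher CTRL level, grey bars span the range within a match, and dashed lines mark 2-fold. NSP1 Bra040923 (range 2.26) and MBP2 Bra018942 (range 1.94) spread widest.

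The calls were also counted by unigene length. Of the 13 pathway unigenes under 600 bp that passed the minimum, 3 were at least 2-fold lower and 1 higher in SS, whereas 4 of the 42 of 600 bp or more were lower and none higher. Among all unigenes under 600 bp, 6.82% were lower and 2.81% higher, and among those of 600 bp or more 2.73% were lower and 1.41% higher. The part of length in the result was not tested.

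Further genes, which the search words do not reach, were taken from lists of synthesis genes, transporters, regulators and other sulfotransferases. These lists hold 40 further unigenes, of which 39 passed the minimum. At least 2-fold lower in SS were 4 (10.3%, where 4.21% of all unigenes were) and higher was 1 (2.56%, where 1.91% of all were). Their median log2 difference was -0.11, where that of all unigenes was -0.06. The 4 lower ones were the regulators MYB51 and MYB34, 1 copy of CYP83B1 and 1 copy of sulphotransferase 12, and the higher one was a copy of MYB28. Sulphotransferase 12 sulfates other small molecules, so the share of lower unigenes includes a gene outside the pathway.

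Of the MYB factors, MYB51 and MYB34, which activate indole glucosinolate genes in Arabidopsis, had the largest differences of all 96 unigenes examined. MYB51 R_9999 had 0.0812 RPKM in SS (0.0221 to 0.208, 4 reads) and 2.98 RPKM in CTRL (2.53 to 3.49, 155 reads), a log2 difference of -4.09 and a ratio of 0.0273 (0.00733 to 0.0712). MYB34 R_4860 had 0.285 RPKM in SS (0.137 to 0.524, 10 reads) and 4.29 RPKM in CTRL (3.65 to 5.01, 159 reads), a log2 difference of -3.51 and a ratio of 0.0664 (0.0313 to 0.125). Each is a single short unigene, with 549 bp for MYB51 and 391 bp for MYB34, and has few reads in SS. MYB122, the third factor of the indole group, was level: R_23682 had 4.65 RPKM in SS and 4.19 RPKM in CTRL, and R_24378 had 2.88 RPKM in SS and 2.89 RPKM in CTRL.

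MYB28, the main activator of aliphatic glucosinolate genes, had 5 copies that summed to 89.7 RPKM in SS and 89.7 RPKM in CTRL. The rarest, R_13702, had 5.93 RPKM in SS (5.35 to 6.55) and 2.70 RPKM in CTRL (2.33 to 3.12), a log2 difference of 1.10 and a ratio of 2.19 (1.83 to 2.63). With a pseudocount of 1 RPKM its difference was 0.90, and with the SS values as deposited 0.87. R_22908 was higher in SS as well, with 19.8 RPKM in SS and 14.5 RPKM in CTRL. The other three had lower values in SS. R_24580 had 20.9 RPKM in SS and 23.0 RPKM in CTRL, R_25243 had 25.0 RPKM in SS and 25.9 RPKM in CTRL, and R_25607 had 18.1 RPKM in SS and 23.5 RPKM in CTRL. MYB29, its close relative, had 1.15 RPKM in SS and 2.12 RPKM in CTRL (R_14394). IQD1, a calmodulin-binding regulator, had 13.6 RPKM in SS and 17.3 RPKM in CTRL for R_26119, and 9.61 RPKM in SS and 12.5 RPKM in CTRL for R_26860.

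The cytochromes P450 make the aldoxime and oxidise it on. CYP83A1 R_26538, which handles aliphatic aldoximes, had 401 RPKM in SS (398 to 404) and 303 RPKM in CTRL (300.1 to 305), a ratio of 1.32 (1.31 to 1.34). CYP83B1, which prefers the indole aldoxime, was lower in both copies. R_25860 had 18.6 RPKM in SS and 31.4 RPKM in CTRL, a ratio of 0.593 (0.567 to 0.621), and R_5660 had 0.488 RPKM in SS (18 reads) and 1.92 RPKM in CTRL (75 reads), a log2 difference of -1.78 (-0.98 with a pseudocount of 1 RPKM). CYP79B2, which makes indole-3-acetaldoxime from tryptophan, was rare in both libraries. Its copy R_13607 had 1.05 RPKM in SS and 1.85 RPKM in CTRL, R_12857 had 0.860 RPKM in SS and 1.13 RPKM in CTRL, and R_17229 had 1.16 RPKM in SS and 1.26 RPKM in CTRL, while the fourth, R_9768, stayed under 1 RPKM. Only the interval of R_13607 left out a ratio of 1 (0.414 to 0.768). Unigenes annotated as CYP79C2 were R_27104, with 140.3 RPKM in SS and 88.9 RPKM in CTRL, a ratio of 1.58 (1.55 to 1.61), and R_9808, with 2.20 RPKM in SS and 3.11 RPKM in CTRL.

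**Figure D4:**
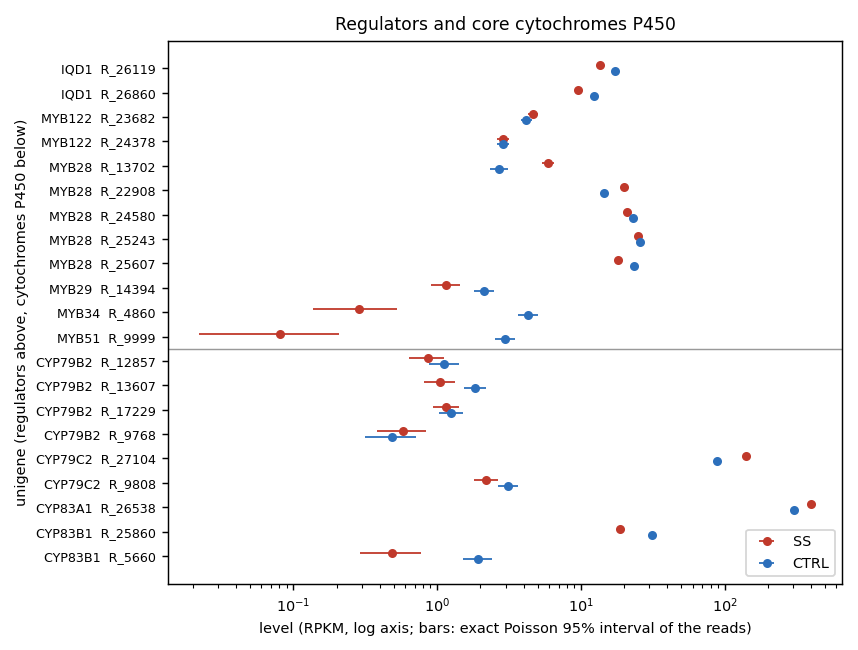
Levels of the listed regulators (above the line) and cytochromes P450 (below it) on a log axis, SS in red and CTRL in blue. Bars are exact Poisson 95% intervals of the reads. MYB34 and MYB51 show the widest gaps, with SS at 0.285 and 0.0812 RPKM.

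Set side by side by branch, a grouping made after the values were seen and therefore a description only, the indole unigenes mostly had lower values in SS. Of 11 unigenes (MYB34, MYB51, MYB122, CYP79B2, CYP83B1 and SOT16) 10 passed the minimum, 9 of these lay below 0 (8 with size factors or with the trend removed) and 3 were at least 2-fold lower, with a median log2 difference of -0.71. Among the 9, the ratio intervals of MYB122 R_24378 (log2 difference -0.0018) and of CYP79B2 R_12857 and R_17229 included 1. CYP79B2 R_9768, which missed the minimum, had 0.577 RPKM in SS (28 reads) and 0.487 RPKM in CTRL (25 reads). Of all unigenes, 57.4% lay below 0, 42.6% above 0 and 4.21% were at least 2-fold lower. Of 22 aliphatic unigenes (MYB28, MYB29, branched-chain aminotransferase 4, MAM1, CYP83A1, SOT17, SOT18 and GS-OX5) 13 lay above 0 (14 with size factors or with the trend removed), with 1 at least 2-fold higher, 1 at least 2-fold lower and a median of 0.22. From side-chain elongation this set took only MAM1 and branched-chain aminotransferase 4. It left out the isopropylmalate enzymes, branched-chain aminotransferase 3 and the bile acid symporter family. The whole elongation list of 22 unigenes had 12 above 0 and 10 below, with a median of 0.02, so the aliphatic median depends on this choice. The indole unigenes were also the rarer ones, with a median level of 1.05 RPKM in SS and 2.89 RPKM in CTRL, where the aliphatic ones had 16.9 RPKM in SS and 17.4 RPKM in CTRL. The part of these low levels in the difference was not tested.

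The remaining lists outside the search words hold 1 more unigene past 2-fold. UGT74B1 R_24690, which adds the glucose, had 38.7 RPKM in SS and 40.6 RPKM in CTRL. The APS kinase R_20543, which supplies the sulfate donor PAPS, had 78.7 RPKM in SS and 63.5 RPKM in CTRL, a ratio of 1.24 (1.20 to 1.28). None of the 22 unigenes of the elongation list, which adds branched-chain aminotransferases and bile acid symporter family transporters to the members above, passed 2-fold, and their log2 differences ran from -0.79 to 0.67. Of the 3 unigenes of sulphotransferase 12, which sulfates other small molecules such as flavonoids, R_18850 had 0.983 RPKM in SS and 4.35 RPKM in CTRL, a log2 difference of -2.04, and the others had differences of 0.01 and 0.78.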

How the data were processed

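RNA-seq of 1 SS and 1 CTRL library was used. The authors assembled the reads with Trinity and CD-HIT-EST, mapped each library to the unigenes with BOWTIE2 and normalized with DESeq. No version of Trinity, BOWTIE2 or DESeq is named in the sources used here. CTRL was deposited as RPKM, corrected for unigene length. SS was deposited under the same name, yet as a signal with no length in it: divided by 1 fixed step, its 47505 listed values came out whole to within 0.01 read (0.000279 read at most). SS values were therefore converted to RPKM. For 47391 of the 47392 unigenes above 0 in CTRL, 1 length was chosen among those that gave whole CTRL reads. All 56 members and the 40 listed unigenes were among them. The choice drew on lengths that rise with unigene number and on a first guess of the length. That guess was the running median of SS reads over CTRL RPKM in neighbouring unigenes, so it used the values of both libraries. The other one, and the 121 unigenes with no CTRL value above 0, took lengths from their neighbours. The recovery, the calls and the intervals were tried on simulated Poisson reads, for the recovery and the calls on the lengths recovered here. Such data cannot show whether these lengths are right, nor how far reads vary beyond counting error.

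Calls used a pseudocount of 0.1 RPKM, a minimum of 1 RPKM in either library and 2-fold. Values listed as not available were left out. Levels and ratios carry 95% intervals (SciPy 1.17.1, pandas 2.3.3, Python 3.11.15). Named were all members with at least 10 RPKM in either library or past 2-fold, HOL1, and, from the lists outside the search words, those past 2-fold and all regulators and cytochromes P450. A few others, R_6331, R_10187, R_24380, R_4224, R_24690, R_20543 and R_8749, were named after their values were seen. The members and lists were chosen with earlier results of these data known, and the branches after the values were seen. Lists rest on the deposited descriptions, which cover 90.2% of rapa but 9.19% of non-rapa unigenes. Alternatives were 2 other pseudocounts, 2 other minimum values, 3 other scalings, removal of a running trend over 500 unigenes and the SS values as deposited. No other column held values of a sample.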

Additional observations from a re-analysis of the deposited data

How the results depend on the processing

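With 1 library per condition, no replicate could be left out. No paired analysis was possible because there is 1 library per condition. The members' counts of 1 higher and 7 lower were the same with a pseudocount of 0.01 RPKM, without a minimum and under the 3 scalings and the trend removal. With a pseudocount of 1 RPKM the members had 0 higher, the listed genes outside the search words 0 higher, and all unigenes 403 higher and 644 lower with a median of -0.0497. MBP2 R_3948 then had 0.58, SOT18 R_10958 had -0.83, CYP83B1 R_5660 had -0.98 and MYB28 R_13702 had 0.90. A minimum of 5 RPKM left fewer unigenes to test. Of 44 members 0 were then higher and 4 lower, and of 27 listed genes 1 was higher and 0 lower. Of all 17396 unigenes left, 225 were higher and 380 lower, with a median of -0.00903. The median of all unigenes was -0.0797 when centred on unigenes of 10 RPKM or more, -0.0676 with the same total in both libraries, 0.00153 with size factors and -0.000290 with the trend removed. The share of higher calls among all calls was 31.3% as reported, 41.2% with the trend removed and 43.5% with the SS values as deposited. Read as deposited, without own lengths, the SS values gave 7033 higher and 9144 lower of all unigenes with a median of -0.0708, 13 higher members with a median of 0.54, and 8 higher and 7 lower listed genes with a median of 0.71, since long unigenes are then raised and short ones lowered. HOL1 then had -0.80, NSP1 R_23491 had -0.71 and MYB28 R_13702 had 0.87. None of the 13 named unigenes past 2-fold changed direction under any of these settings in which it had a value. Differences at few reads, as for MYB51 with 4 reads in SS, are limited by depth.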
